A study of Mus musculus with 12 samples.

Results

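Collagen chain genes were followed across 12 RNA-seq libraries of mouse bone marrow mesenchymal stem cells (MSCs). The genes were taken by symbol, as every gene of the deposited tables whose symbol is Col, a number, a and a number, which gave 43 of 18908 genes. They comprised 11 fibrillar, 8 basement membrane and 8 FACIT genes (fibril-associated collagens with interrupted helices) and 16 others. MSCs are adherent marrow cells that can form osteoblasts, adipocytes and chondrocytes, and here they were grown in DMEM with FBS. The series title asks about melatonin, bone formation by senescent MSCs and the histone methyltransferase NSD2. Young vehicle libraries were replicates 2, 4 and 5, and the old vehicle libraries set against them in the age table were replicates 2, 8 and 9. In the melatonin table, old vehicle replicates 1, 3 and 5 were set against old replicates 1, 3 and 5 labelled melatonin, given at 1 µM for 24 h. The labels give neither strain, genotype nor age in numbers, and do not say what the vehicle was. Whether each library had its own animal is not stated either, and p-values then measure only the spread between these libraries, which may be technical.

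Collagen chains wind around each other in the endoplasmic reticulum as procollagen, are secreted, trimmed and crosslinked, and give tissue its tensile strength. Type I collagen, built from the Col1a1 and Col1a2 chains, is the main protein of bone matrix and is made by osteoblasts and their stromal precursors. Types III, V and XI co-assemble with type I or type II fibrils, FACIT collagens sit on fibril surfaces, type IV forms the network of basement membranes, and type VI forms beaded filaments around cells.

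4 promoters are shown because they belong to genes whose levels are described together or apart further on: Col1a2 to its partner Col1a1, and Col4a1 to Col4a2, ranged little in their ratios over libraries, while Col3a1 ranged more against Col1a1 and against its neighbour Col5a2. Each is the 250 bases before the annotated start from RefSeq's GRCm38.p6 table, 5′ to 3′ on the gene's strand, matched by gene identifier. That build differs from the mm39 named in the submitters' processing notes. Capitals mark CCAAT, or its reverse complement ATTGG, the core bases read by CCAAT-binding factors.
Col1a2, chr6:4505368-4505617, plus strand: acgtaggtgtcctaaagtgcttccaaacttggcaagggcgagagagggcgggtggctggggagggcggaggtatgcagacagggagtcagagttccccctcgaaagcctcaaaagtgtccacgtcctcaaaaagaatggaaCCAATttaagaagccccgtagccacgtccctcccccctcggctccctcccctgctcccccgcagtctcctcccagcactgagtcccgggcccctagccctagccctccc
Col3a1, chr1:45311288-45311537, plus strand: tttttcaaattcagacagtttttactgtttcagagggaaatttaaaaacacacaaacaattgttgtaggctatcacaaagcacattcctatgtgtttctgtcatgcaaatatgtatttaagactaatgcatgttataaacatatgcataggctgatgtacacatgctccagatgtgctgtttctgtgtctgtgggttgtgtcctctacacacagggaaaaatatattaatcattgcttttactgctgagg
Col4a1, chr8:11312827-11313076, minus strand: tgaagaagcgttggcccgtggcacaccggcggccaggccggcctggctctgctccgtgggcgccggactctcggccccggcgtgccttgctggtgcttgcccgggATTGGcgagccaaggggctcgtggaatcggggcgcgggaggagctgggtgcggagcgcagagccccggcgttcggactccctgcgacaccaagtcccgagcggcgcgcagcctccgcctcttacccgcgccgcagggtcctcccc
Col4a2, chr8:11312555-11312804, plus strand: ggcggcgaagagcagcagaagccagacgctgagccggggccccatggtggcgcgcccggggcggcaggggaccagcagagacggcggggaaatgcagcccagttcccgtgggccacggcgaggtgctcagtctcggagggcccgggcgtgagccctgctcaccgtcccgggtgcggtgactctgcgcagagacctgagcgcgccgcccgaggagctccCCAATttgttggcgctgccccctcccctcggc
The CCAAT match of Col1a2 began 109 bases before its start, that of Col4a2 began 32 bases before, and the ATTGG of Col4a1 began 145 bases before. No match was found in the Col3a1 window, whose GC content was 35.2%, against 62.0% for Col1a2, 74.4% for Col4a1, 73.6% for Col4a2 and a median of 52.4% over all windows. The annotated starts of Col4a1 and Col4a2 lie 21 bases apart on opposite strands, and each gene is transcribed across the start of the other. Their 5′ ends thus overlap, their windows share 0 bases, and each window lies on the side to which the other gene is transcribed. Of the 34 collagen genes with a window, 12 (35.3%) held CCAAT or ATTGG, against 37.5% of 27025 genes. GGGCGG or CCGCCC was found in 21 (61.8%) against 35.4% of all, and TATAAA or TTTATA in 5 (14.7%), Col3a1 among them, against 14.3%. Each motif was counted separately on both strands, matches of different motifs can overlap (CCGCCC and CCAAT can share CC), and a match is a description of the window and not a binding site.

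Libraries held 20595378 to 21309663 estimated counts, and a count of 0 allows up to 3 counts by counting error, or 0.136 to 0.152 CPM (counts scaled by library size). Each library of the age table resembled 1 library of the melatonin table more than any other. Young vehicle replicates 2, 4 and 5 matched the libraries labelled melatonin 1, 3 and 5 at r = 0.9896, 0.9946 and 0.9931 over log2 CPM of 13354 genes, and old vehicle replicates 2, 8 and 9 matched old vehicle replicates 1, 3 and 5 at 0.9945, 0.9928 and 0.9775. Libraries of 1 group in 1 table correlated at 0.8445 to 0.9365. The matched libraries still differed by more than counting error, with a median chi-square 1.77 to 6.02 times that expected. Among the 17 collagen genes averaging at least 50 CPM, none differed by over 1.5-fold in 5 of the pairs, and 8 did between old vehicle replicates 9 and 5. Whether matched libraries are repeat runs of the same samples, or carry a wrong label, is not stated and was not tested. The values under the melatonin label may therefore not measure melatonin, the 6 old vehicle libraries may be fewer than 6 separate samples, and the comparisons are not independent of each other. Macrophage transcripts also divided the libraries: the summed level of 22 markers was 977.9, 66.09 and 169.7 CPM in young vehicle replicates 2, 4 and 5, against 1118, 21790 and 20110 CPM in old vehicle replicates 2, 8 and 9. It was 1220, 23990 and 17560 CPM in old vehicle replicates 1, 3 and 5 and 1025, 119 and 217.9 CPM in libraries labelled melatonin 1, 3 and 5, and Csf1r, a defining receptor, was above 0 in all 12. In the fits, 22 of 22 macrophage markers were higher in old than in young vehicle, against 47.7% of all tested genes. In libraries labelled melatonin 21 of 21 tested were lower, against 48.3%. None passed an adjusted p under 0.05. Old vehicle replicates 8, 9, 3 and 5 are called macrophage-rich here. A list of 14 stromal markers summed to 9950 to 32120 CPM, to which Fn1 and Vim added most. Pdgfrb, Prrx1 and Vim were present in every library, while Thy1, a stromal surface marker, was at 12.6, 13.6 and 15.5 CPM in old vehicle replicates 8, 3 and 5 and at 151 CPM or more elsewhere. Lepr, of the same list, was at 25.7 and 25.9 CPM in old vehicle replicates 2 and 1 and at 1.77 CPM or less elsewhere. Nt5e ranged from 0.907 to 10.8 CPM. The 10 endothelial markers summed to 8.963 to 81.32 CPM; Cldn5 did not exceed 0.0505 CPM and Cdh5 2.46 CPM, whereas Kdr reached 60.2 CPM in the library labelled melatonin 1, and Vwf was at 71.0 and 61.2 CPM in old vehicle replicates 8 and 3. In such bulk RNA, fewer collagen-making cells and less collagen RNA per cell cannot be told apart.

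All collagen genes together took 1.44%, 0.912% and 2.79% of TPM (transcript levels scaled for gene length and to a common total) in young vehicle replicates 2, 4 and 5, and 1.09%, 0.471% and 0.380% in old vehicle replicates 2, 8 and 9. In the melatonin table the share was 1.13%, 0.5% and 0.332% in old vehicle replicates 1, 3 and 5, and 1.64%, 0.859% and 2.86% in libraries labelled melatonin 1, 3 and 5. The 4 macrophage-rich libraries had the lowest shares, and old vehicle replicates 2 and 1 lay above young vehicle replicate 4. Mean shares were 1.72% ± 0.971 in young and 0.646% ± 0.384 in old vehicle (SD, n = 3; exact two-sided permutation p = 0.2), and 0.654% ± 0.422 in old vehicle and 1.79% ± 1.01 in libraries labelled melatonin (SD, n = 3; exact two-sided permutation p = 0.2). The smallest p such a test of 3 against 3 can give is 0.1, and over the 34 tests of shares and ratios the adjusted p of both was 0.785. Without young vehicle replicate 5 the difference in means was −0.531 percentage points in place of −1.07, and without the library labelled melatonin 5 it was 0.593 in place of 1.13. The macrophage markers were highest where the collagen share was lowest, and their part in it was not tested; with the macrophage-rich libraries left out the differences were −0.630 and 0.655 percentage points.

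**Figure D1:**
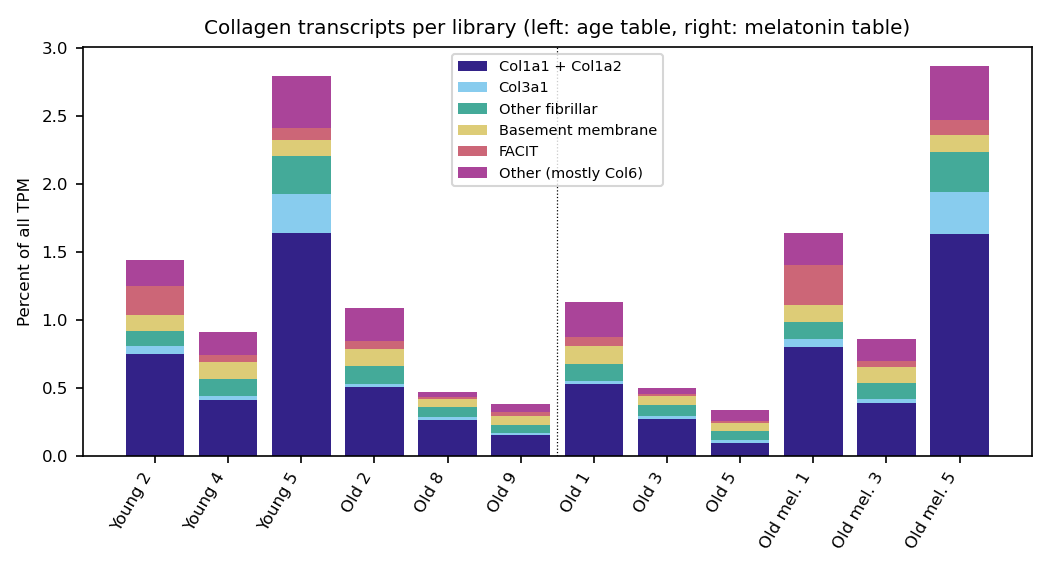
Stacked bars give the percent of all TPM held by collagen genes in each library, split into Col1a1 plus Col1a2, Col3a1, other fibrillar, basement membrane, FACIT and other genes; a dotted line separates the age table (left) from the melatonin table (right). Young vehicle replicate 5 at 2.79% and the library labelled melatonin 5 at 2.86% stand highest, and old vehicle replicate 5 at 0.332% lowest.

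By length-scaled level, Col1a2 and Col1a1 ranked first and second of the collagen genes with mean levels of 3240 and 2942 TPM over 12 libraries, followed by Col12a1 at 792 TPM, Col6a1 at 746 TPM and Col3a1 at 741 TPM. Spread of each gene over libraries was wide, so neighbours in this order were not separated beyond it. A mean of at least 50 CPM was reached by 17 genes, 13 lay between 1 and 50 CPM, and 13 lay under 1 CPM. The last set held Col4a3 and Col4a4, kidney-type basement membrane chains, the type IX chains Col9a2 and Col9a3 that accompany cartilage fibrils, the alternative type VI chains Col6a4, Col6a5 and Col6a6, and the epithelial hemidesmosome collagen Col17a1. Col13a1, Col19a1, Col22a1, Col25a1 and Col26a1 were also there.

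In old against young vehicle, the main matrix collagens lay lower in mean and type II collagen higher, but no collagen gene passed the test. The tests used edgeR's quasi-likelihood fit on estimated counts of 13547 genes, of which 0% passed at an adjusted p under 0.05, and 34 of the 43 collagen genes had counts enough to enter. The smallest adjusted p was 0.315, shared by Col3a1, while 1865 genes had an unadjusted p under 0.05 and DESeq2 called 956 genes, of which Col3a1 was the 1 collagen. Below 0 lay 23 of 34 collagen genes, against 52.3% of all tested genes, and their median log2 change was −0.58, against −0.025 for all. Col3a1, Col11a1 and Col27a1 were lower at an unadjusted p under 0.05, against 4.95% of all genes, and none was higher at that p, against 8.81%. Groups did not overlap for 4 genes lower in old vehicle, which were Col3a1, Col11a1, Col4a2 and Col4a5, against 9.46% of all genes, and for Col2a1, which was higher, against 8.89%. These counts at an unadjusted p and of groups that do not overlap are within a few genes of what the background shares give. Median log2 changes by class were −1.18 for 11 fibrillar genes, −0.33 for 7 basement membrane genes, −0.02 for 6 FACIT genes and −0.81 for 10 other genes. Leaving out the macrophage-rich libraries, which leaves a lone old vehicle library assumed to vary like the others, gave a median of −0.31 with 26 of the tested genes lower. The low-count filter was applied anew in that fit, so the number of collagen genes tested need not be 34.

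In libraries labelled melatonin against old vehicle, the same fit tested 13471 genes, passed 0% and held 32 collagen genes. Type I, III, XI, XII and VI collagens were higher in mean and type II collagen lower, with no gene past the threshold. The smallest adjusted p over all genes was 0.286, 1914 genes had an unadjusted p under 0.05, and DESeq2 called 1035 genes with Col2a1 as the 1 collagen. Above 0 lay 25 of 32 collagen genes, against 51.7% of all tested genes, and their median log2 change was 0.82, against 0.0199 for all. Col12a1, Col3a1 and Col4a5 were higher at an unadjusted p under 0.05, against 4.76% of all genes, and Col2a1 was lower, against 9.45%. Groups did not overlap for 4 genes higher in libraries labelled melatonin, Col11a1, Col3a1, Col4a2 and Col4a5, against 10% of all genes, and for Col2a1, which was lower, against 8.99%. The counts at an unadjusted p and of groups that do not overlap are again within a few genes of the background. Class medians were 1.05 for fibrillar, 0.55 for basement membrane, 0.54 for FACIT and 0.92 for other genes. Without the macrophage-rich libraries the median was 0.38 with 28 genes higher, of a number tested that, filtered anew, need not be 32. Without the library labelled melatonin 5 the median was 0.45. Old vehicle replicate 1, when left out, moved the median to 1.36.

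**Figure D2:**
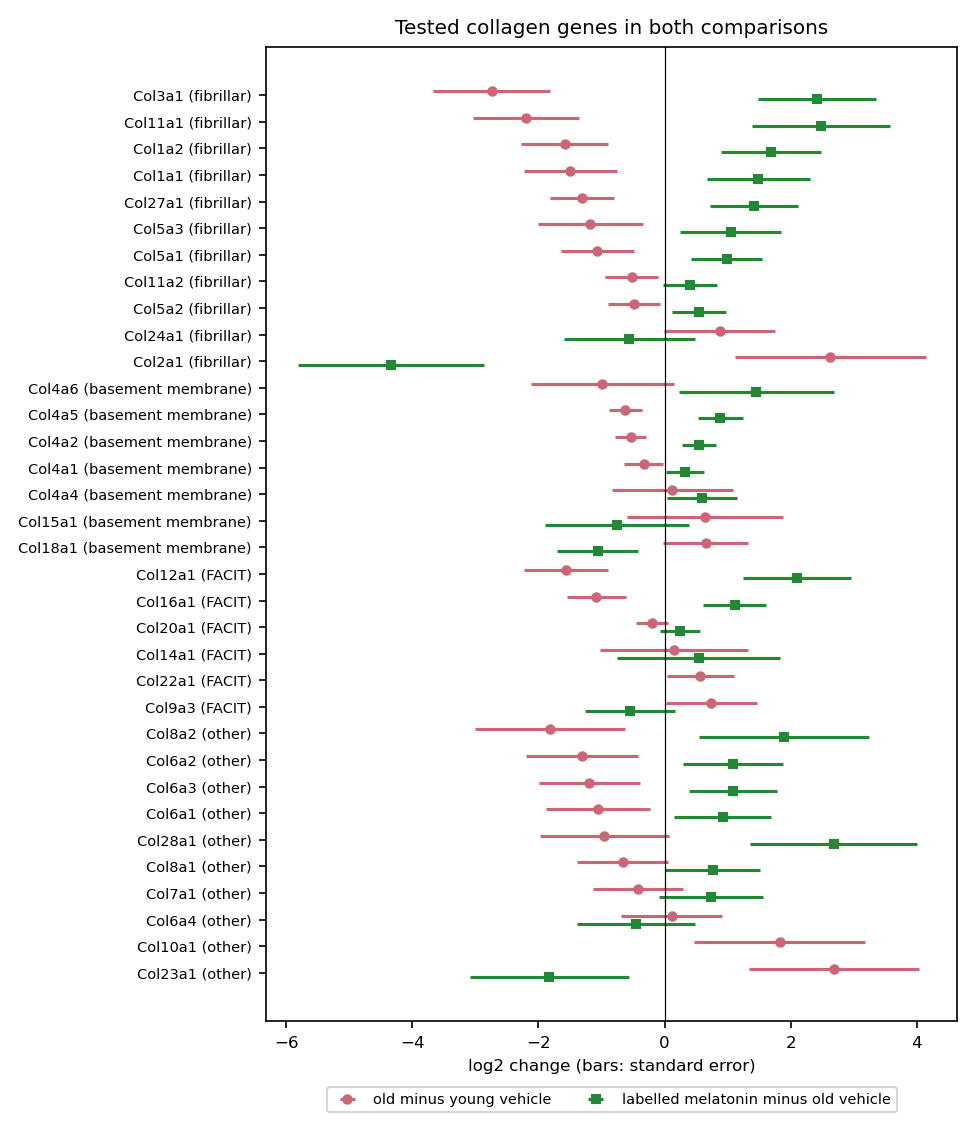
Points give the fitted log2 change of each tested collagen gene with its standard error as a bar, in old minus young vehicle (red circles) and in libraries labelled melatonin minus old vehicle (green squares). Bars are widest for Col2a1, at 2.63 ± 1.51 and −4.34 ± 1.48, and narrowest for Col4a2, at −0.53 ± 0.25 and 0.55 ± 0.26. Width does not follow level alone. With age the standard error is 0.25 for Col20a1, at a mean of 16.1 CPM, and 0.92 for Col3a1, at a mean of 1870 CPM.

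Among fibrillar genes, Col1a1 (gene 12842) stood at 7179, 5182 and 23314 CPM in young vehicle replicates 2, 4 and 5 and at 6489.9, 4051 and 2009 CPM in old vehicle replicates 2, 8 and 9. It stood at 6600.2, 4092 and 1158 CPM in old vehicle replicates 1, 3 and 5 and at 7147, 5053 and 21439 CPM in libraries labelled melatonin 1, 3 and 5. Groups overlapped in both tables, and the number 5 library of the young and of the labelled melatonin group stood far above the others. The log2 change was −1.50 ± 0.74 (SE; edgeR adjusted p = 0.42) with age and 1.49 ± 0.82 (SE; adjusted p = 0.449) with the melatonin label. Without those high libraries it was −0.57 and 0.63. Col1a2 (gene 12843), the partner chain, was at 9616, 4256 and 19862 CPM in young and 5882, 3362 and 1966 CPM in old vehicle of the age table, with a log2 change of −1.58 ± 0.69 (adjusted p = 0.378). In the melatonin table it was at 6068, 3296 and 1225 CPM in old vehicle and 10348, 4226 and 19832 CPM in libraries labelled melatonin, with a log2 change of 1.69 ± 0.79 (adjusted p = 0.395).

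Type III collagen, which accompanies type I in soft and healing tissue, comes from Col3a1 (gene 12825) alone. Young vehicle replicates 2, 4 and 5 held 1277, 699 and 7570.4 CPM of it, and old vehicle replicates 2, 8 and 9 held 512, 475 and 427 CPM. Old vehicle replicates 1, 3 and 5 held 539, 568 and 682 CPM, and libraries labelled melatonin 1, 3 and 5 held 1248, 686 and 7758 CPM. All 6 old vehicle libraries lay within 427 to 682 CPM, below every other library, though 682 and 686 CPM are close. The log2 change was −2.74 ± 0.92 (SE; edgeR adjusted p = 0.315) with age and 2.41 ± 0.94 (SE; adjusted p = 0.339) with the label. Leaving out young vehicle replicate 5 gave −1.07, and leaving out the library labelled melatonin 5 gave 0.70. Leaving out the macrophage-rich libraries gave −2.63 and 2.57, from fits with a lone old vehicle library that kept the high number 5 libraries. The part of macrophages in the difference was not tested.

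Col11a1 (gene 12814), a chain that nucleates thin fibrils in cartilage and in early bone, was at 342, 354 and 1884 CPM in young and 223, 256 and 78.3 CPM in old vehicle of the age table. It was at 210.1, 241 and 25.8 CPM in old vehicle and 323, 342 and 2034 CPM in libraries labelled melatonin, and groups did not overlap in either table. Its log2 change was −2.20 ± 0.84 (adjusted p = 0.342) and 2.48 ± 1.09 (adjusted p = 0.375). Without the number 5 library of the young and labelled melatonin groups it was −0.91 and 1.07. Old vehicle replicates 9 and 5, though matched to each other, differed most in this collagen, by a log2 of −1.60. Its partner Col11a2 stayed between 2.94 and 7.63 CPM.

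Type V collagen limits the diameter of type I fibrils. Col5a1 was at 1594, 1550.0 and 4332 CPM in young and 1946, 874 and 722 CPM in old vehicle of the age table, and at 2009, 972 and 815 CPM in old vehicle and 1756, 1494 and 4363 CPM in libraries labelled melatonin. Col5a2, its partner, was at 1376, 1637 and 3219 CPM in young and 1878, 1510.2 and 1024 CPM in old vehicle, and at 1766, 1520.0 and 962 CPM in old vehicle and 1349, 1632 and 3330.2 CPM in libraries labelled melatonin. For both, old vehicle replicates 2 and 1 lay above the lower members of the group they were compared with. The third chain, Col5a3, was at 50, 40.9 and 170.2 CPM in young and 80.5, 16.3 and 18.2 CPM in old vehicle, and at 91.2, 23.9 and 20 CPM in old vehicle and 66.5, 38.5 and 177 CPM in libraries labelled melatonin. Log2 changes with age were −1.07 ± 0.58 for Col5a1, −0.48 ± 0.42 for Col5a2 and −1.18 ± 0.84 for Col5a3, with edgeR adjusted p-values of 0.454 or more. With the label they were 0.98 ± 0.56, 0.54 ± 0.43 and 1.05 ± 0.80, with adjusted p-values of 0.463, 0.583 and 0.562.

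Col27a1, a fibrillar collagen of cartilage and developing bone, was at 31.5, 11.1 and 18.2 CPM in young and 12.4, 5.53 and 6.63 CPM in old vehicle (log2 change −1.30 ± 0.51, edgeR adjusted p = 0.348). It was at 16.0, 4.40 and 7.98 CPM in old vehicle and 44.9, 9.89 and 21.5 CPM in libraries labelled melatonin (1.42 ± 0.70, adjusted p = 0.411), and groups overlapped in both tables. Col24a1 ranged from 0.455 to 5.92 CPM.

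Type II collagen, the main fibril of cartilage, comes from Col2a1 (gene 12824) and differed in direction from the other well-known fibrillar genes. Young vehicle replicates 2, 4 and 5 held 14.5, 5.92 and 0 CPM, from 319, 129 and 0 counts, and old vehicle replicates 2, 8 and 9 held 31.2, 15.2 and 79.1 CPM. In the melatonin table, old vehicle replicates 1, 3 and 5 held 33.0, 16.5 and 154 CPM, and libraries labelled melatonin 1, 3 and 5 held 5.5, 4.79 and 0.0504 CPM. Groups did not overlap in either table, with 15.2 against 14.5 CPM the nearest values across age. The log2 change was 2.63 ± 1.51 with age (SE; edgeR adjusted p = 0.47) and −4.34 ± 1.48 with the label (SE; adjusted p = 0.304). Of the cartilage markers, Acan, the cartilage proteoglycan, did not exceed 0.182 CPM in any library, Matn1 did not exceed 0.764 CPM, and Sox9, a regulator of Col2a1, was at 34.3 to 49.4 CPM in young and 12.8 to 39.8 CPM in old vehicle of the age table. Of 10 listed cartilage markers 9 were in the tables, and their sum ranged from 41.92 to 183.9 CPM in young, 27.16 to 193.4 CPM in old vehicle of the age table, 29.93 to 221.3 CPM in old vehicle of the melatonin table and 40.17 to 163.5 CPM in libraries labelled melatonin.

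**Figure D3:**
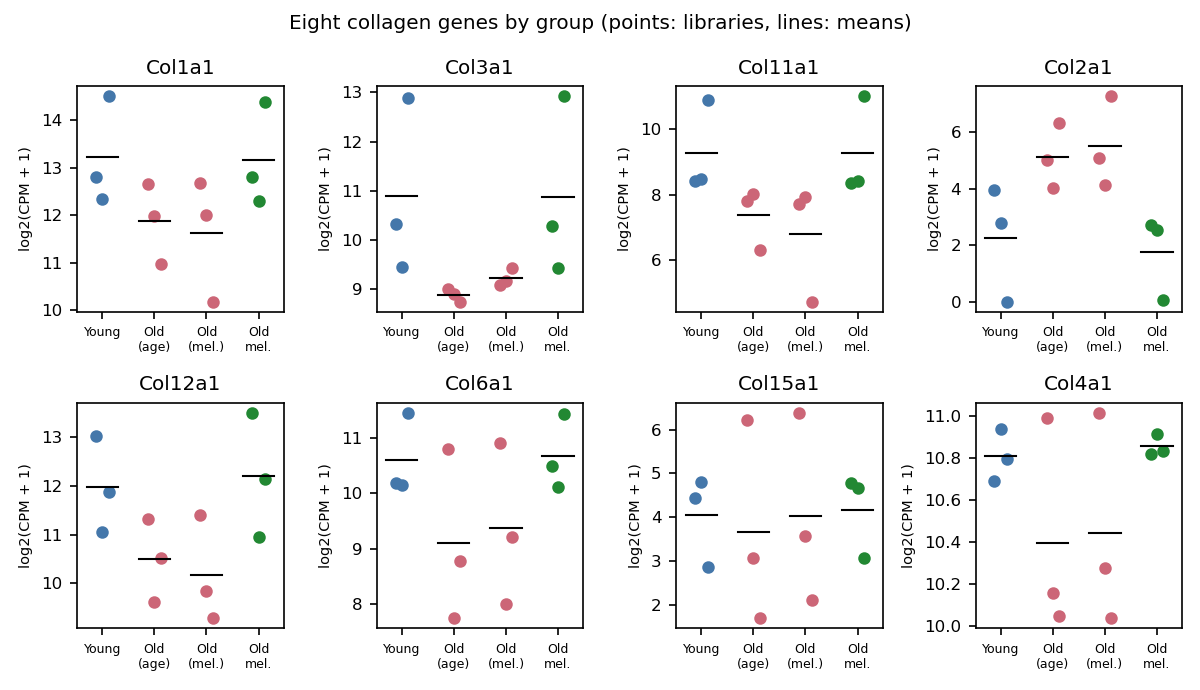
Each panel plots log2(CPM + 1) of a collagen gene, with a point per library and a line at the group mean, for young vehicle, old vehicle of the age table, old vehicle of the melatonin table and libraries labelled melatonin. Col3a1 of the 6 old vehicle libraries falls between 427 and 682 CPM and Col2a1 of the same libraries between 15.2 and 154 CPM, whereas Col15a1 spreads from 2.24 to 82.7 CPM within old vehicle.

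Among basement membrane genes, Col4a1 and Col4a2 form the common type IV network. Col4a1 (gene 12826) was at 1652, 1962 and 1781 CPM in young and 2036, 1141 and 1057 CPM in old vehicle, and at 2072, 1242 and 1051 CPM in old vehicle and 1808, 1931 and 1829 CPM in libraries labelled melatonin. Old vehicle replicates 2 and 1 held the highest levels of all libraries and the macrophage-rich ones the lowest. Its log2 change of −0.33 ± 0.31 with age (edgeR adjusted p = 0.653) turned to 0.18 without the macrophage-rich libraries, and 0.32 ± 0.30 with the label (adjusted p = 0.641) turned to −0.17. Col4a2 (gene 12827) was at 1231, 1179.6 and 1509 CPM in young and 1119.7, 754 and 799.6 CPM in old vehicle, and at 1156, 800.2 and 719 CPM in old vehicle and 1280.2, 1172 and 1526 CPM in libraries labelled melatonin. Groups of Col4a2 did not overlap in either table, by 1119.7 against 1179.6 CPM and by 1156 against 1172 CPM. Its log2 change was −0.53 ± 0.25 (adjusted p = 0.396) and 0.55 ± 0.26 (adjusted p = 0.406), and −0.22 and 0.19 without the macrophage-rich libraries.

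Col4a5, an X-linked type IV chain of kidney and other membranes, was at 113, 117 and 173 CPM in young and 111, 70.5 and 76.9 CPM in old vehicle (log2 change −0.63 ± 0.26, edgeR adjusted p = 0.366). It was at 107, 72.2 and 48.9 CPM in old vehicle and 119, 114 and 194 CPM in libraries labelled melatonin (0.88 ± 0.36, adjusted p = 0.347). Groups did not overlap, though 111 and 113 CPM nearly met, and without the macrophage-rich libraries the changes were −0.28 and 0.40. Col4a6, which lies beside Col4a5, reached 9.31 CPM at most.

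Col18a1, whose fragment endostatin restrains vessel growth, was at 39.7, 29.1 and 68.3 CPM in young and 139, 22.9 and 52.0 CPM in old vehicle, and at 166, 29.3 and 83.1 CPM in old vehicle and 41.9, 28.4 and 64.9 CPM in libraries labelled melatonin. Old vehicle replicates 2 and 1 held the high values, and leaving out replicate 2 turned the log2 change with age from 0.65 ± 0.68 (edgeR adjusted p = 0.686) to −0.27. The change with the label was −1.06 ± 0.64 (adjusted p = 0.481). The related Col15a1 was at 20.8, 27.1 and 6.31 CPM in young and 74.1, 7.44 and 2.24 CPM in old vehicle, and at 82.7, 10.8 and 3.30 CPM in old vehicle and 26.6, 24.3 and 7.40 CPM in libraries labelled melatonin. Its log2 change of 0.64 ± 1.23 with age turned to −1.87 without old vehicle replicate 2, and that of −0.75 ± 1.14 with the label turned to 1.43 without old vehicle replicate 1.

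The FACIT Col12a1 (gene 12816), which bridges type I fibrils and is raised by mechanical load, was at 8376, 2129 and 3748 CPM in young and 2560.0, 781 and 1472 CPM in old vehicle of the age table. It was at 2701, 913 and 620.4 CPM in old vehicle and 11645, 1981 and 4494 CPM in libraries labelled melatonin. Young vehicle replicate 2 and the library labelled melatonin 1 were highest, where for type I and III collagen the number 5 libraries were highest. The log2 change was −1.57 ± 0.67 with age (SE; edgeR adjusted p = 0.37) and 2.10 ± 0.86 with the label (SE; adjusted p = 0.35), and −0.85 and 1.17 without those libraries. Groups overlapped in both tables, since old vehicle replicates 2 and 1 lay above young vehicle replicate 4 and the library labelled melatonin 3.

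Col16a1, a FACIT of skin and cartilage fibrils, was at 180.2, 101 and 252 CPM in young and 131, 53.9 and 64.7 CPM in old vehicle, and at 137, 51.3 and 64.7 CPM in old vehicle and 198, 99.7 and 256 CPM in libraries labelled melatonin. Its log2 change was −1.09 ± 0.47 with age (edgeR adjusted p = 0.375) and 1.12 ± 0.50 with the label (adjusted p = 0.383). Col20a1 ranged from 12.3 to 23.2 CPM and Col14a1, a fibril-surface collagen of skin and tendon, from 0.404 to 15.3 CPM. Col22a1, found at muscle-tendon junctions, was at 0.545, 0.596 and 0.404 CPM in young and 0.522, 0.503 and 1.24 CPM in old vehicle of the age table. Col9a3, a cartilage chain, was at 1.04, 0.780 and 0.202 CPM in young and 0.522, 1.61 and 1.24 CPM in old vehicle, and at 0.332, 1.21 and 1.81 CPM in old vehicle and 1.10, 0.782 and 0.453 CPM in libraries labelled melatonin. Its log2 changes of 0.74 ± 0.72 with age and −0.55 ± 0.71 with the label turned to −0.38 and 1.21 without the macrophage-rich libraries. Col9a2 and Col19a1 were too low to test.

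Type VI collagen is assembled from Col6a1, Col6a2 and Col6a3 and holds cells to their matrix. Col6a1 (gene 12833) was at 1161, 1139.9 and 2809 CPM in young and 1789, 214 and 441 CPM in old vehicle, and at 1916, 256 and 591 CPM in old vehicle and 1447, 1104 and 2749 CPM in libraries labelled melatonin. Col6a2 (gene 12834) was at 846, 961 and 2344 CPM in young and 1264, 139 and 262 CPM in old vehicle, and at 1409, 179 and 389 CPM in old vehicle and 1059, 932 and 2253 CPM in libraries labelled melatonin. Col6a3 (gene 12835) was at 1335, 1225 and 2140.1 CPM in young and 1507, 369 and 164 CPM in old vehicle, and at 1594, 469.8 and 267 CPM in old vehicle and 1493, 1152 and 2367 CPM in libraries labelled melatonin. The macrophage-rich libraries held the lowest levels of all 3 genes, below every other library, and old vehicle replicates 2 and 1 lay among the rest. Log2 changes with age were −1.06 ± 0.83, −1.31 ± 0.88 and −1.20 ± 0.80 (SE; edgeR adjusted p = 0.593, 0.527 and 0.524), and with the label 0.92 ± 0.77, 1.09 ± 0.80 and 1.09 ± 0.70 (SE; adjusted p = 0.598, 0.552 and 0.498). Without the macrophage-rich libraries Col6a1 turned to 0.07 with age and to −0.13 with the label, and Col6a2 turned to −0.004 with the label.

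Type VIII collagen forms short networks under endothelium and in smooth muscle. Col8a1 was at 520.2, 140.4 and 1118 CPM in young and 495, 241 and 379 CPM in old vehicle, and at 482, 238 and 363 CPM in old vehicle and 482, 143 and 1234 CPM in libraries labelled melatonin. Its log2 change of −0.67 ± 0.72 with age turned to 0.16 without young vehicle replicate 5, and that of 0.76 ± 0.75 with the label turned to −0.20 without the library labelled melatonin 5. Col8a2 ranged from 2.29 to 88.4 CPM. Col10a1, the collagen of hypertrophic cartilage, was at 0.999, 0.459 and 0.101 CPM in young and 0.142, 0.604 and 4.77 CPM in old vehicle. In the melatonin table, where it was not tested, it was at 0.427, 0.404 and 11.0 CPM in old vehicle and 1.10, 0.414 and 0.403 CPM in libraries labelled melatonin. Its log2 change with age of 1.83 ± 1.35 (edgeR adjusted p = 0.568) turned to −0.47 without old vehicle replicate 9 and to −1.84 without the macrophage-rich libraries. The transmembrane collagen Col23a1 was at 3, 0.275 and 1.21 CPM in young and 1.52, 24.9 and 2.43 CPM in old vehicle, and at 1.85, 20.2 and 2.15 CPM in old vehicle and 4.54, 0.368 and 1.91 CPM in libraries labelled melatonin. Old vehicle replicates 8 and 3 stood apart. The log2 change with age was 2.68 ± 1.35 (edgeR adjusted p = 0.429) and 0.41 without replicate 8, and that of −1.83 ± 1.26 with the label turned to 0.18 without replicate 3. Col7a1, the anchoring fibril of skin, ranged from 6.07 to 54.9 CPM, and Col28a1 from 4.38 to 125 CPM with the library labelled melatonin 1 highest.

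**Figure D4:**
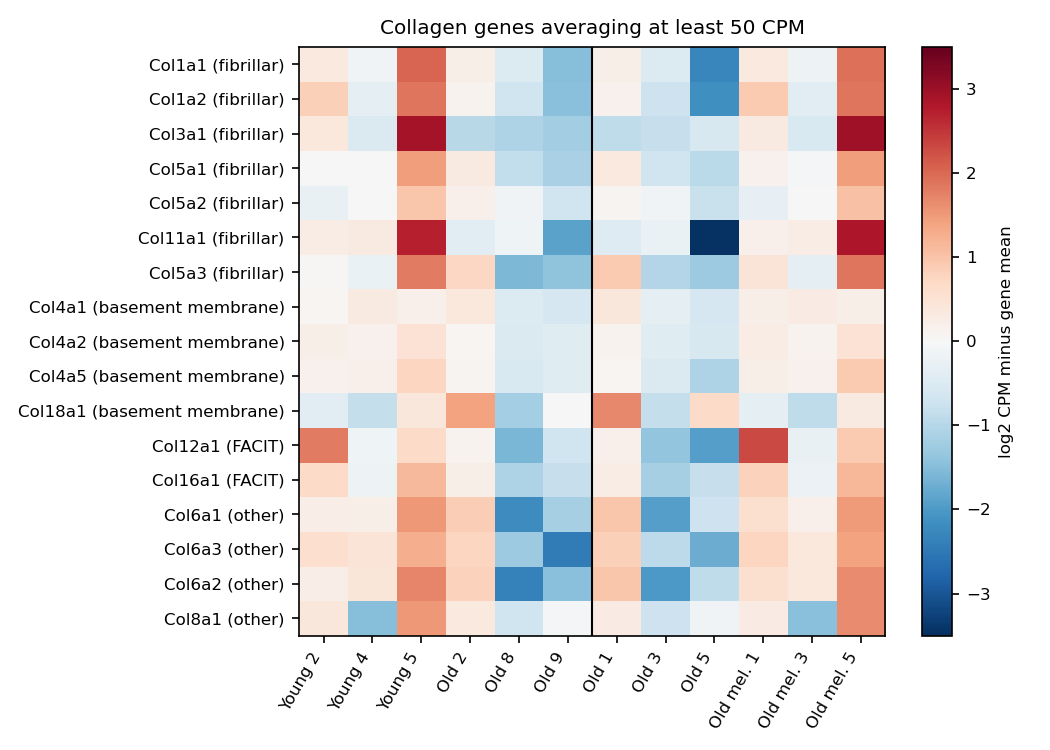
Colour gives the log2 CPM of each of the 17 collagen genes averaging at least 50 CPM, minus that gene's mean over the 12 libraries, with the age table left and the melatonin table right of the line. Young vehicle replicate 5 and the library labelled melatonin 5 are red across type I, III, V, XI and VI genes, old vehicle replicates 8, 9, 3 and 5 are blue for type VI genes, and Col4a1 spans no more than 1051 to 2072 CPM.

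Ratios of some partner chains varied less than the chains, and others did not. Col1a1 ranged 20.1-fold and Col1a2 16.8-fold in TPM over the 12 libraries, while their ratio ranged 1.8-fold, from 0.608 in the library labelled melatonin 1 to 1.09 in old vehicle replicate 3. Col6a1 and Col6a2, neighbours on chromosome 10, ranged 14.2-fold and 18.1-fold and their ratio 1.45-fold. Col4a1 and Col4a2 overlap at their 5′ ends on opposite strands, as given above. Their ratio ranged 1.54-fold, from 1.15 to 1.77, against 2.16-fold and 2.24-fold for the chains. The Col5a1 to Col5a2 ratio ranged 2.3-fold, against 6.29-fold and 3.59-fold for the chains. That of Col6a2 to Col6a3, whose genes lie on different chromosomes, ranged 4.08-fold, against 18.1-fold and 14.4-fold for the chains. Col3a1 and Col5a2 are also neighbours, on chromosome 1, and their ratio ranged 8.63-fold, from 0.324 to 2.8. The Col3a1 to Col1a1 ratio ranged 7.47-fold. Other partner ratios ranged more than 1 of their chains did: Col8a1 to Col8a2 12.8-fold against 8.09-fold for Col8a1, Col4a5 to Col4a6 35.7-fold against 4.13-fold for Col4a5, and Col11a1 to Col11a2 54.4-fold against 2.66-fold for Col11a2. These ranges are descriptions, and low genes add counting error to them.

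The Col6a1 to Col6a2 ratio was 1.33, 1.13 and 1.15 in young and 1.36, 1.49 and 1.63 in old vehicle of the age table (exact two-sided permutation p = 0.1, the smallest possible; adjusted p = 0.785 over 34 tests). In the melatonin table it was 1.31, 1.39 and 1.47 in old vehicle and 1.33, 1.13 and 1.17 in libraries labelled melatonin (exact permutation p = 0.2). Groups did not overlap with age and overlapped with the label. Of all collagen TPM, fibrillar genes held 53.6% to 79.0% per library and basement membrane genes 4.11% to 18.8%. The basement membrane share was 8.56% ± 4.75 in young and 13.7% ± 2.84 in old vehicle (SD, n = 3; exact permutation p = 0.3), and 14.5% ± 3.84 in old vehicle and 8.56% ± 4.76 in libraries labelled melatonin (SD, n = 3; exact permutation p = 0.3).

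**Figure D5:**
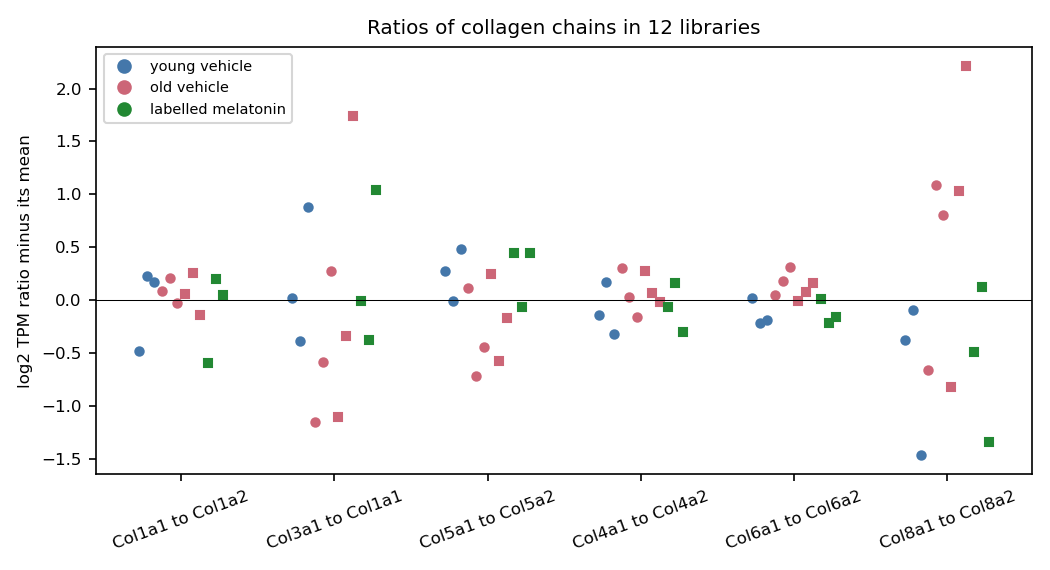
Each point is a library's log2 TPM ratio of a pair of collagen chains minus the mean over the 12 libraries, with circles for the age table and squares for the melatonin table. Ratios of Col1a1 to Col1a2, Col4a1 to Col4a2 and Col6a1 to Col6a2 range 1.8-, 1.54- and 1.45-fold, and those of Col3a1 to Col1a1 and Col8a1 to Col8a2 range 7.47- and 12.8-fold.

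Genes that fold, export, trim, crosslink or bind collagen were read from 4 lists, none of whose members passed an adjusted p under 0.05 in edgeR. Of all tested genes, 52.3% were lower and 47.7% higher in old vehicle, and 51.7% were higher and 48.3% lower with the label. The counts by direction in the 4 lists are descriptions and were not tested against those shares. Of 17 tested genes for procollagen folding and modification, 10 were lower in old vehicle, against 52.3% of all, with a median log2 change of −0.10. With the label 11 were higher, against 51.7% of all, with a median of 0.08. Serpinh1, the collagen chaperone HSP47, was at 1196, 947 and 2391 CPM in young and 1103, 841 and 681 CPM in old vehicle (log2 change −0.77 ± 0.41, adjusted p = 0.448), and at 1102, 874 and 637 CPM in old vehicle and 1169, 955 and 2206 CPM in libraries labelled melatonin (0.71 ± 0.40, adjusted p = 0.46). Young vehicle replicate 5 and the library labelled melatonin 5 were highest for it, as they were for type I and III collagen.

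Of 8 genes for procollagen export, 6 were lower in old vehicle, against 52.3% of all, with a median of −0.29. With the label 6 were higher, against 51.7% of all, with a median of 0.29. Sec24d, a COPII coat protein needed to export procollagen, was at 213, 217 and 317 CPM in young and 172, 131 and 114 CPM in old vehicle, and at 184, 145 and 126 CPM in old vehicle and 198, 216 and 319.8 CPM in libraries labelled melatonin. Its groups did not overlap in either table, and the log2 change was −0.83 ± 0.25 (adjusted p = 0.315) and 0.66 ± 0.26 (adjusted p = 0.34). Its partner Sec23a differed in mean by −0.65 ± 0.25 and 0.63 ± 0.26, and the retrieval receptor Kdelr2 by −0.48 ± 0.19 and 0.47 ± 0.19 (log2). The COPII GTPase Sar1b differed the other way, at 0.53 ± 0.15 and −0.48 ± 0.20.

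Of 11 tested genes for procollagen processing and crosslinking, 7 were lower in old vehicle, against 52.3% of all, with a median of −0.26. With the label 7 were higher, against 51.7% of all, with a median of 0.22. The lysyl oxidase homologue Loxl2 was at 20.4, 15.1 and 2.47 CPM in young and 304, 253 and 163 CPM in old vehicle, and at 290.0, 264 and 239 CPM in old vehicle and 14.6, 14.4 and 2.17 CPM in libraries labelled melatonin. All 6 old vehicle libraries lay at 163 CPM or more and the others at 20.4 CPM or less, with log2 changes of 4.26 ± 0.79 (edgeR adjusted p = 0.315) and −4.70 ± 0.75 (adjusted p = 0.286). Loxl1, another crosslinking enzyme of the same family, differed the opposite way, at 581, 657 and 692 CPM in young and 384, 269 and 184 CPM in old vehicle, with log2 changes of −1.19 ± 0.29 and 0.95 ± 0.24. Pcolce, which speeds removal of the C-propeptide, was at 1461, 1243 and 1621 CPM in young and 1262, 331 and 484 CPM in old vehicle, with log2 changes of −1.05 ± 0.51 and 1.13 ± 0.53.

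Of 9 collagen receptors, 6 were higher in old vehicle, against 47.7% of all, with a median of 0.22. With the label 6 were lower, against 48.3% of all, with a median of −0.30. Itga11, a fibrillar collagen integrin chain of stromal cells, was at 68.6, 50 and 109.8 CPM in young and 459, 168 and 113 CPM in old vehicle, and at 465, 192 and 173 CPM in old vehicle and 68.4, 45.4 and 104 CPM in libraries labelled melatonin. Its log2 changes were 1.70 ± 0.59 (adjusted p = 0.316) and −1.94 ± 0.51 (adjusted p = 0.286). Lair1, a collagen receptor of leukocytes, was at 77.4 and 59.4 CPM in macrophage-rich old vehicle replicates 8 and 9, at 92.6 and 59.2 CPM in replicates 3 and 5, and the other 8 libraries did not exceed 5.56 CPM.

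Osteoblast markers, whose cells make type I collagen, were set beside these levels. The 12 markers summed to 5574, 4238 and 18810 CPM in young and 7821, 9131 and 5866 CPM in old vehicle, and to 7537, 7897 and 6612 CPM in old vehicle and 5548, 4321 and 18600 CPM in libraries labelled melatonin. The libraries highest in type I collagen were thus highest in this sum. Postn and Sparc, matrix proteins that stromal cells also make, weighed most in those libraries, at 8759 and 7783 CPM in young vehicle replicate 5. In old vehicle replicates 8 and 3, by contrast, Spp1 weighed most, at 5732 and 4528 CPM. Those libraries also had the highest macrophage marker sums, 21790 and 23990 CPM, and which cells made Spp1 was not tested. With age 4 of 11 tested markers were lower and 7 higher, against 52.3% and 47.7% of all tested genes. With the label 6 were lower and 5 higher, against 48.3% and 51.7%. None passed an adjusted p under 0.05 in edgeR. Sp7, a defining transcription factor of osteoblasts, was at 0.772 CPM or less in every young library and library labelled melatonin and at 4.43 to 18.3 CPM in old vehicle, where type I collagen was lower in mean. Alpl and Ibsp went the same way as Sp7. In the age table Alpl was at 3.91, 0.321 and 0 CPM in young and 84.9, 10.2 and 89.8 CPM in old vehicle. Ibsp was at 0.227, 0.0917 and 0 CPM in young and 65.4, 1.66 and 6.97 CPM in old vehicle. Phex, an osteoblast and osteocyte peptidase, went the other way. It was at 0.818, 1.65 and 13.1 CPM in young and 0.569, 0.604 and 0.239 CPM in old vehicle of the age table. Adipocyte markers, 5 of 5 tested, were higher in old vehicle and lower with the label, against 47.7% and 48.3% of all tested genes. Their sums were 184.2 to 736.5 CPM in old vehicle of the age table and 71.96 to 103.2 CPM in young. Lpl and Cebpa weighed most in macrophage-rich old vehicle replicates 8 (179 and 119 CPM) and 9 (338 and 297 CPM). Adipoq, Plin1 and Cidec reached 5.49, 1.19 and 2.24 CPM at most. Of smooth muscle and pericyte markers, 7 of 8 were higher in old vehicle, against the same 47.7%. The part of these cell types in the collagen levels was not tested.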

How the data were processed

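Cultured mouse bone marrow MSCs gave Trizol RNA that was read on a BGISEQ-500, per the labels' protocols. Each of the 2 tables lists 3 values for a gene in a library, per the file headers. Estimated counts, as the authors deposited them, can be fractions of a read, and 67.7% were within 0.005 of a whole number. FPKM, also deposited, corrects for gene length and depth, and deposited TPM further brings each library to a common total. RSEM, Bowtie2, BWA and mm39 appear in the submitters' processing notes. Their roles, the annotation and the strand setting were not stated in those sources, so reads of overlapping or antisense genes cannot be told apart.

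Estimated counts were rounded, filtered with edgeR's filterByExpr (minimum count 10, minimum total 15), scaled by TMM and tested per table by the quasi-likelihood method of edgeR 4.0.16 (with limma 3.58.1 in R 4.3.3), with Benjamini-Hochberg adjustment over all tested genes and a threshold of 0.05. The standard error (SE) is the size of the log2 change divided by the square root of F. CPM per library used TMM over all 12 libraries. Shares and ratios used TPM, with exact permutation tests. The fit was tested on simulated data with seeded changes. Those data varied less between libraries than the real ones and held changes only in genes above the median level. The simulation therefore does not show how often real changes would be found here. RefSeq promoters of GRCm38.p6 were matched by gene identifier. FPKM was also used for ratios and shares, but within a library it is proportional to TPM, so it could not change them and is no separate check.

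Values per library are given for collagen genes averaging at least 50 CPM and for up to 5 with the smallest p per direction of each comparison, and up to 4 genes per pathway list could be named. The collagen genes, lists and tests were chosen with earlier results of these data known. Alternatives were DESeq2 1.42.0, no low-count filter, a threshold of 0.1, all 6 old vehicle libraries, the label number as a replicate block, shares of counts, and leaving out each library. Library totals without TMM and leaving out the macrophage-rich libraries were chosen after seeing the data.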

Additional observations from a re-analysis of the deposited data

Results flagged for a closer look

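The Col3a1 to Col1a1 ratio of TPM was 0.628 in old vehicle replicate 5, while the other 5 of the 6 old vehicle libraries lay between 0.0841 and 0.227. Whether it stands out depends on the scale: on log2, used by the permutation tests of ratios, the gap takes a smaller part of the range. On the ratio itself, the gap to the nearest library was 0.738 of the whole range, above Dixon's critical value for 6 libraries. That value takes the 6 as independent, whereas they form 3 pairs across the tables that correlate at 0.9945, 0.9928 and 0.9775; the library matched to replicate 5, old vehicle replicate 9, had a ratio of 0.227. It was the only one of 41 collagen values of the old vehicle group so examined that stood out, and chance gives about 5% of such values. Col1a1 was lower in that library, at 1158 CPM, than in any other, and Col3a1, at 682 CPM, was the highest of the old vehicle libraries.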

How the results depend on the processing

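By DESeq2, 1 collagen gene was called in each comparison, Col3a1 with age and Col2a1 with the label, against 0 by edgeR. The count stayed at 0 with an adjusted p under 0.1, no filter, library totals, all 6 old vehicle libraries, or any library left out. With the replicate block it was also 0 and the median log2 change with the label was 0.69 against 0.82. Deviations of same-numbered libraries from their group means correlated at −0.222, 0.119 and −0.0226. Whether the label numbers mark shared animals is not stated, and so few libraries cannot settle it. The block turned Col15a1 with the label to 0.24. Without the macrophage-rich libraries, Col10a1 (−1.84), Col4a1 (0.18), Col6a1 (0.0724) and Col9a3 (−0.38) turned with age, as did the share of other collagens (6.91 percentage points) and the log2 ratio of Col8a1 to Col8a2 (−0.0145). With the label, Col23a1 (0.30), Col4a1 (−0.17), Col6a1 (−0.13), Col6a2 (−0.00402), Col9a3 (1.21) and the Col8a1 to Col8a2 ratio (0.25) turned. The cause was not tested.

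Leaving out each library in turn gave log2 changes with age of −0.47 to 2.74 for Col10a1, −1.87 to 1.18 for Col15a1, −0.27 to 1.08 for Col18a1 and −1.13 to 0.16 for Col8a1. Shares of collagen TPM differed with age by −8.37 to 2.32 percentage points for fibrillar, −4.33 to 1.5 for FACIT and −3.58 to 3.58 for other genes, and the log2 ratio of Col1a1 to Col1a2 by −0.11 to 0.24. With the label, the ranges were −1.27 to 1.43 for Col15a1, −2.84 to 0.18 for Col23a1 and −0.20 to 1.23 for Col8a1. They were −1.44 to 9.96 percentage points for the fibrillar and −0.12 to 6.98 for the FACIT share, −0.33 to 0.0677 for the Col1a1 to Col1a2 ratio and −0.48 to 0.94 for the Col3a1 to Col1a1 ratio. The median log2 change ranged from −0.84 to −0.42 with age and from 0.45 to 1.36 with the label. The biological coefficient of variation was 0.481 and 0.482 with 3 libraries per group. For the 13 genes under 1 CPM, few counts limit the precision.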
